A study of Mus musculus with 4 samples.

Results

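The genes described here are 43 genes of the lysosome and of autophagy, taken as every row of the deposited gene table whose symbol was on a fixed list, out of 15768 genes in that table. They comprise 21 lysosome genes, 17 genes of the autophagy machinery and 5 regulators of these genes. All 43 had a row, and 42 passed the filter on low counts. The exception was Ctsz, a cathepsin listed at 0.09 FPKM in 1 control library and at 0 in the other 3 libraries.

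The study sequenced total RNA, prepared with an mRNA library kit, from JoMa1.3, a mouse line of neural crest stem cells with conditional immortalisation, to find what lies downstream of Lkb1 loss in these progenitors. Control libraries, of genotype WT in the labels, came from cells given a non-targeting siRNA pool, and Lkb1 siRNA libraries, labelled Lkb1 KD, from cells given a pool against Stk11, the gene for the kinase LKB1. Both groups received 60 nM siRNA, were harvested at 72 h and grew in the same medium with EGF, FGF and chick embryo extract. Each group had 2 libraries, 1 from batch 1 and 1 from batch 2. All libraries come from 1 cell line, the labels name a pair of transfection reagents without saying which was used for which sample, and nothing says that the batches were independent cultures, so the spread between libraries may be technical.

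Total gene counts lay between 17426719 and 19324675 per library. Stk11 itself stood at 52.7 and 52.1 FPKM in the control libraries and at 36.3 and 36.9 FPKM in the Lkb1 siRNA libraries, a change of -31.7% that left most of the transcript in place. Of 11 neural crest markers, 9 had a row in the gene table and all of these were tested, with a summed level of 546 to 599 CPM in control and 554 to 584 CPM in Lkb1 siRNA libraries. Single markers within this sum moved both ways. Snai2 was at 53.1 and 53.3 FPKM in control and at 52.5 and 44.6 FPKM after Lkb1 siRNA. Pax3 was at 14.4 and 17.8 FPKM in control and at 18.0 and 19.3 FPKM after Lkb1 siRNA. Sox10 and Foxd3 had no row in the gene table and so were not analysed here. Markers of macrophages, a lysosome-rich cell type, summed to 3.21 to 3.44 CPM in control and 2.83 to 3.02 CPM after Lkb1 siRNA over the 3 of 9 genes with a row. The 6 of 8 melanocyte markers with a row summed to 4.25 to 4.75 CPM in control and 2.56 to 3.63 CPM after Lkb1 siRNA. Most of this sum came from Gpnmb, at 3.38 and 3.01 CPM in control and at 1.76 and 2.61 CPM after Lkb1 siRNA. The part of these low marker levels in the results was not tested.

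Lysosomes are acidic organelles in which cathepsins and other hydrolases break down material delivered by endocytosis or by autophagosomes. The transcription factors TFEB, TFE3 and MITF bind an E-box motif in the promoters of many lysosome and autophagy genes, and the kinase complex mTORC1, acting at the lysosome surface with the Rag GTPases and folliculin, keeps these factors in the cytoplasm. LKB1 activates the kinase AMPK, which phosphorylates the autophagy kinase ULK1 and restrains mTORC1, and so links LKB1 to both groups of genes.

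The E-box of the TFEB family was looked up in promoter windows of RefSeq, build GRCm38.p6, each of which runs from 250 bases before to 50 bases after a gene's start. The windows of Lamp1, Mcoln1 and Ctsd are shown because they hold that motif, and the window of Scarb2 because this gene changed most and its window holds none. The capitals mark the letters TCACGTG in either direction. The deposited values were made on GRCm39, so the coordinates below belong to the RefSeq windows alone.
Lamp1, chr8:13158911-13159210, plus strand: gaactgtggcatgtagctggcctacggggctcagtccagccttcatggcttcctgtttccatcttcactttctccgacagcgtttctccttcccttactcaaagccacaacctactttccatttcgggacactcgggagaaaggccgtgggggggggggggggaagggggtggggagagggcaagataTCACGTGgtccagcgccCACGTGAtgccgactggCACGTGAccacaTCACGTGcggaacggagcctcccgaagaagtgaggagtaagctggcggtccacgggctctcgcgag
Mcoln1, chr8:3500269-3500568, plus strand: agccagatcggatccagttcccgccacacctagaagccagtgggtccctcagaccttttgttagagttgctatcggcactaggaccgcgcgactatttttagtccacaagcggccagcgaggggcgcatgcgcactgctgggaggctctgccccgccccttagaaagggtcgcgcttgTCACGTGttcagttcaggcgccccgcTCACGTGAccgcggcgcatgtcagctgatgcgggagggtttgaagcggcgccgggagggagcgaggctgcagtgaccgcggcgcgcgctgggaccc
Ctsd, chr7:142387778-142388077, minus strand: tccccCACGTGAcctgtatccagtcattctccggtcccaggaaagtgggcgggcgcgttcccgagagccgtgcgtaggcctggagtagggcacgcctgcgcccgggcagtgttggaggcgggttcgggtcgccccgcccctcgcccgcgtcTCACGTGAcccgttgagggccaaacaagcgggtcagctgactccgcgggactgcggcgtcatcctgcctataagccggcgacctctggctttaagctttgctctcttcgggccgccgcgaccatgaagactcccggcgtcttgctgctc
Scarb2, chr5:92505608-92505907, minus strand: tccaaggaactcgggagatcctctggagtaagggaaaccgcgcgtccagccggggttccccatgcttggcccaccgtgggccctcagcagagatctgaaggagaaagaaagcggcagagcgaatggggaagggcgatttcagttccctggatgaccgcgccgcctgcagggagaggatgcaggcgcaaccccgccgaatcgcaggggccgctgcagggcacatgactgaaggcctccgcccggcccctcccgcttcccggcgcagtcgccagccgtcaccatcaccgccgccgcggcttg

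The letters TCACGTG, searched on both strands, were found in the windows of 8 of 19 lysosome members with a window (42.1%), of 2 of 14 autophagy members (14.3%) and of 1 of 5 regulators. Over all tested genes with a window the share was 7.01%, or 684 of 9761 genes. The shorter core CACGTG, which every TCACGTG contains, was in the windows of 52.6% of the lysosome members and of 11.8% of all tested genes with a window. Lamp1, a major glycoprotein of the lysosomal membrane, held 4 copies of TCACGTG, all within 62 bases before the start. Mcoln1, the lysosomal calcium channel TRPML1, and Ctsd, the aspartic protease cathepsin D, also held the motif. Scarb2, the gene with the largest decrease among the members, had no such letters in its window. For 5 members (Atg16l1, Atp6v1h, Becn1, Ctsb and Map1lc3a) no window was used.

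Lysosome transcripts were abundant in these cells. Of the 43 members, 10 had a mean control level of at least 100 FPKM, a unit relative to transcript length and library size, and 9 were under 10 FPKM. The order of control levels ran from Cd63 through Ctsl, Psap, Ctsb, Sqstm1, Lamp1, Grn, Ctsd and Lamp2 to Gabarap. From Cd63 to Grn the FPKM ranges over the 4 libraries did not overlap between neighbours in this order, while Grn, Ctsd, Lamp2 and Gabarap each overlapped the next. The 21 lysosome members together summed to 2877 and 2950 FPKM in the control libraries of batches 1 and 2, and to 2656 and 2788 FPKM after Lkb1 siRNA. The 17 autophagy members summed to 855 and 895 FPKM in control and to 847 and 872 FPKM after Lkb1 siRNA. The lysosome sums did not overlap between the groups, and the autophagy sums did. Most of the lysosome sum comes from Cd63, Ctsl, Psap and Ctsb, and no sum of other genes of like level is given here.

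**Figure D1:**
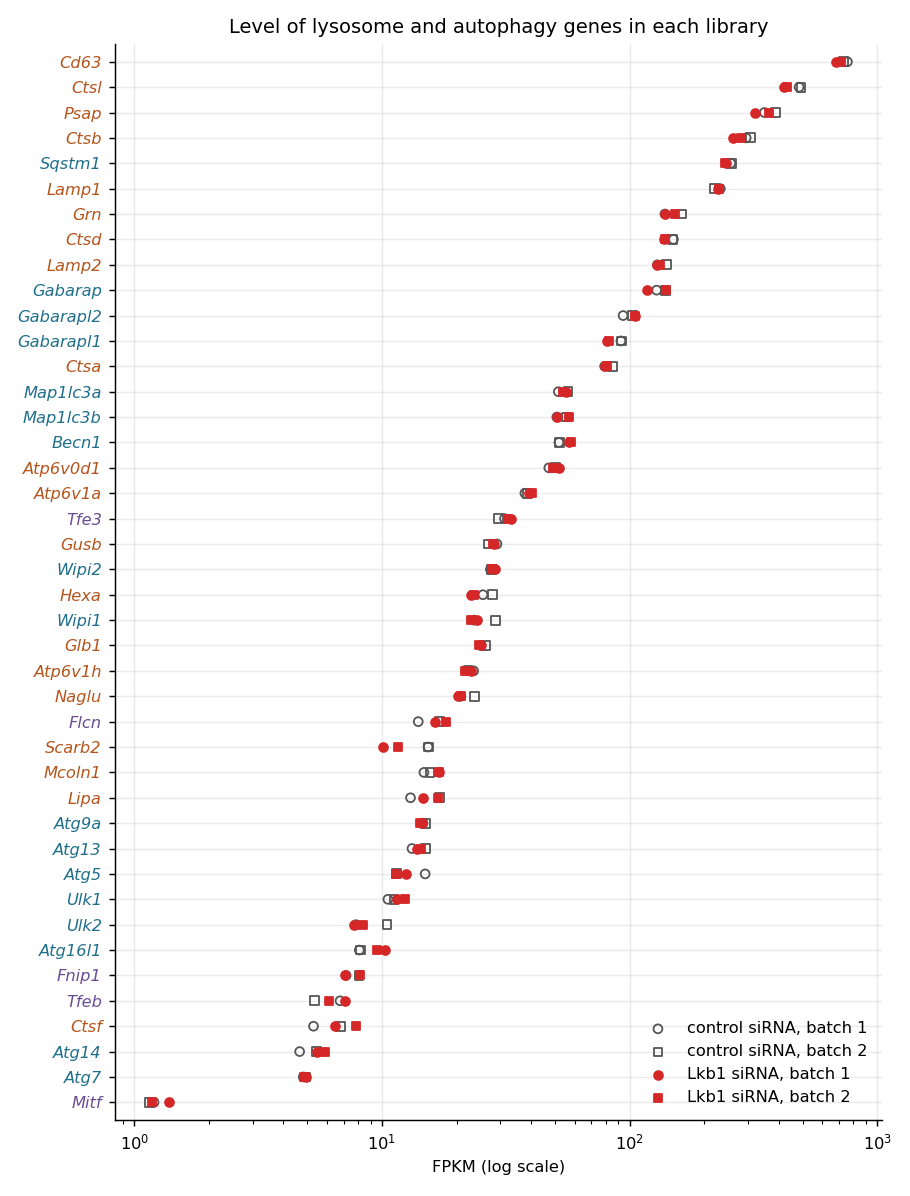
FPKM of the 42 tested members in each of the 4 libraries on a log scale, ordered by mean control level, with open grey symbols for control siRNA, filled red symbols for Lkb1 siRNA, circles for batch 1 and squares for batch 2; gene names are orange for lysosome, blue for autophagy and purple for regulators. Levels run from Mitf near 1.2 FPKM to Cd63 above 681 FPKM, and Scarb2 shows the widest gap between the groups.

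After Lkb1 siRNA, 7 of 20 tested lysosome genes fell when the batches were paired and none when they were not. Scarb2, Hexa and the cathepsins Ctsl and Ctsb had the largest of these decreases, and the 3 MiT/TFE genes passed in neither fit. No member passed the test that compares the groups without regard to batch, edgeR's quasi-likelihood test at an adjusted p of 0.05, in which 0.0327% of the 12222 genes tested were called higher and 0.0491% lower. At an unadjusted p of 0.05 that test gave 6 members lower (14.3%) and 1 higher (2.38%), against 5.53% of all genes lower and 5.61% higher. DESeq2 called 1 member lower (Scarb2) and none higher, against 0.245% of all genes lower and 0.131% higher. With limma on log2 FPKM no member was called, and 0 of all 12222 genes were called in either direction. The batch label pairs the libraries, and with batch as a replicate block edgeR called 9 of 42 members lower (21.4%) and 1 higher, against 6.99% of all genes lower and 6.59% higher. The lysosome members had 7 of 20 lower and 0 higher in that fit, the autophagy members 2 of 17 lower and 1 higher, and the 5 regulators none. Statements below that a gene fell or rose refer to the fit with the block. The fit without the block was the main one, and the fit with it an alternative. With 2 libraries per group, the block leaves little from which to measure a gene's own spread. The p-values with the block therefore rest mainly on a spread pooled over genes and may be too small.

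**Figure D2:**
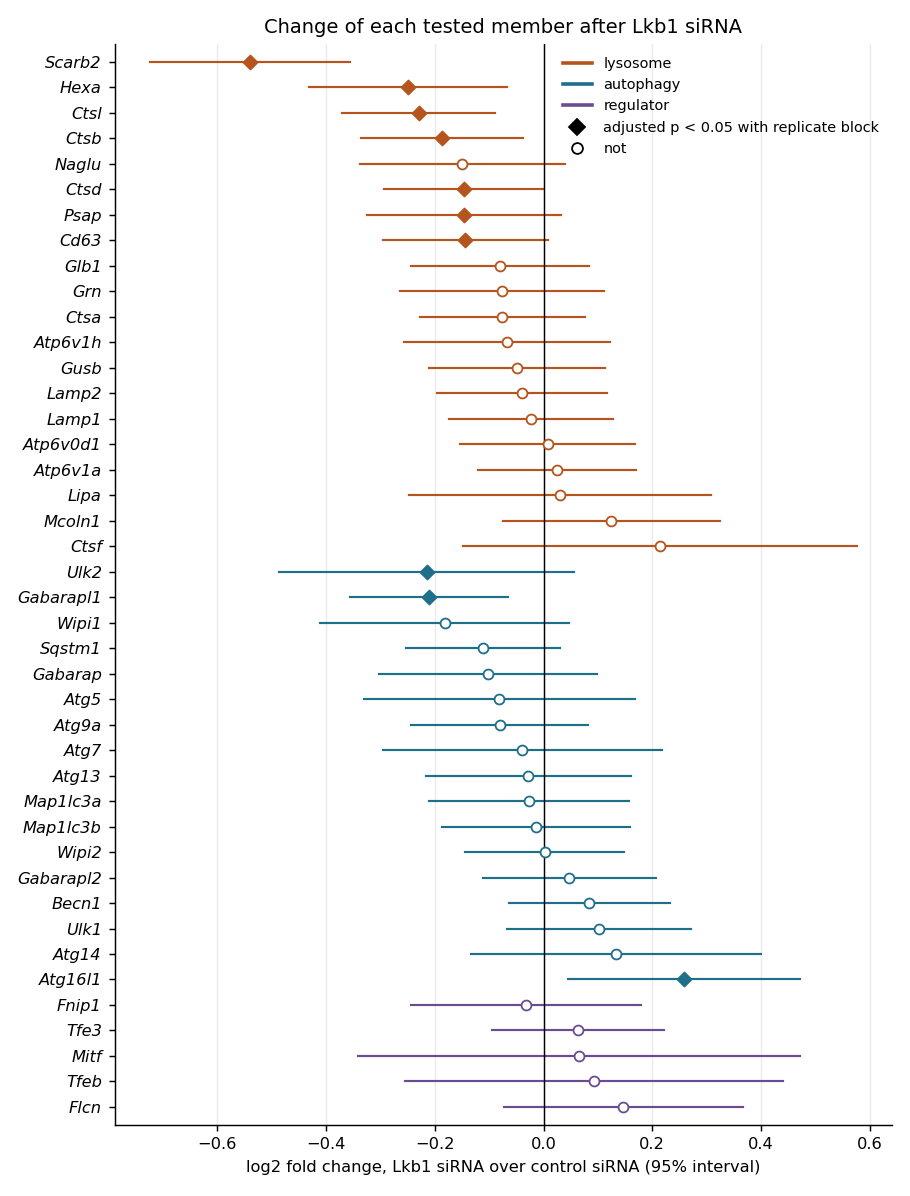
Log2 fold change of each of the 42 tested members, Lkb1 siRNA over control siRNA, from the edgeR fit without the block, with 95% intervals as lines, ordered by size within lysosome (orange), autophagy (blue) and regulators (purple); filled diamonds mark members with an adjusted p under 0.05 with the replicate block. Scarb2 lies at -0.54, and the intervals of 35 members span 0.

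The MiT/TFE factors were all expressed, with Tfe3 at the highest level in each library. Tfe3 was at 31.3 and 29.7 FPKM in control and at 33.1 and 32.4 FPKM after Lkb1 siRNA. Tfeb was at 6.77 and 5.35 FPKM in control and at 7.12 and 6.13 FPKM after Lkb1 siRNA, so that Tfe3 exceeded Tfeb by 4.62 to 5.54 times in FPKM. Mitf, better known for its role in pigment cells, was at 1.2 and 1.15 FPKM in control and at 1.38 and 1.18 FPKM after Lkb1 siRNA. The log2 fold changes were 0.06 ± 0.070 (SE) for Tfe3, 0.09 ± 0.155 for Tfeb and 0.07 ± 0.180 for Mitf, with edgeR adjusted p-values of 0.778, 0.859 and 0.919. For Tfeb and Mitf the libraries of the groups overlapped in FPKM and in CPM, and for Tfe3 in CPM alone. The 95% interval for Tfeb ran from -0.25 to 0.44.

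The folliculin complex, which signals to mTORC1 at the lysosome, is represented by Flcn and its partner Fnip1. Flcn was at 14.0 and 17.1 FPKM in control and at 16.4 and 18.1 FPKM after Lkb1 siRNA, with a log2 change of 0.15 ± 0.098 (edgeR adjusted p = 0.607). Fnip1, an AMPK substrate, had a log2 change of -0.03 ± 0.094. Neither gene passed either fit.

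Of 5 tested cathepsins, the proteases of the lysosome lumen, 4 had a negative log2 fold change, against 49.8% of all genes tested, and 3 fell. Ctsl was at 484 and 493 FPKM in control and at 421 and 434 FPKM after Lkb1 siRNA, a log2 change of -0.23 ± 0.062 (SE; edgeR adjusted p = 0.258 without and 3.31e-05 with the block). Ctsb was at 296 and 308 FPKM in control and at 261 and 281 FPKM after Lkb1 siRNA, with a log2 change of -0.19 ± 0.066 (adjusted p = 0.358 without and 0.0014 with the block). Ctsd was at 150 and 149 FPKM in control and at 138 and 139 FPKM after Lkb1 siRNA, with a log2 change of -0.15 ± 0.065 (adjusted p = 0.442 without and 0.0239 with the block); with the trend on transcript length removed and the block, the call was lost (adjusted p = 0.0580). In these 3 genes both Lkb1 siRNA libraries lay below both control libraries, in both batches. Ctsb overlaps Fdft1, a gene of sterol synthesis, in the annotation; Fdft1 was also lower, with a log2 change of -0.16, and reads of the pair may not be separable. Ctsa, a serine carboxypeptidase, had a log2 change of -0.08 and Ctsf, a cysteine protease at 5.29 to 7.88 FPKM, one of 0.21, and neither passed.

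Among lysosomal membrane proteins, Scarb2 stood apart. It encodes LIMP-2, the receptor that carries the enzyme glucocerebrosidase to the lysosome. Its level was 15.35 and 15.43 FPKM in control and 10.12 and 11.56 FPKM after Lkb1 siRNA. Both Lkb1 siRNA libraries lay well below the control libraries, which were almost equal. The log2 fold change was -0.54 ± 0.082 (SE; edgeR adjusted p = 0.0700 without and 1.3e-15 with the block), and it was -0.65 in batch 1 and -0.44 in batch 2. Of 13 alternative settings, 7 brought Scarb2 past the threshold, with adjusted p-values between 3.93e-17 and 0.293. Among these 7 were leaving out the control library of batch 1 (0.00222), that of batch 2 (9.69e-04) and the Lkb1 siRNA library of batch 2 (8.11e-04), while leaving out the Lkb1 siRNA library of batch 1 gave 0.0550.

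Cd63, a tetraspanin of late endosomes and lysosomes, fell less. It was at 758 and 731 FPKM in control and at 681 and 712 FPKM after Lkb1 siRNA, with a log2 change of -0.14 ± 0.067 (edgeR adjusted p = 0.465 without and 0.0247 with the block). With the trend on transcript length removed and the block, it was -0.086 and the call was lost (adjusted p = 0.222). The groups did not overlap, and the change was -0.21 in batch 1 and -0.07 in batch 2. The glycoproteins Lamp1 and Lamp2 had log2 fold changes of -0.02 and -0.04. Mcoln1 was at 14.8 and 15.6 FPKM in control and at 17.04 and 16.97 FPKM after Lkb1 siRNA, a log2 change of 0.12 ± 0.089 that did not pass (edgeR adjusted p = 0.633).

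Of the hydrolases and other lumenal proteins, 6 of 7 had a negative log2 fold change, against 49.8% of all genes tested, and 2 fell. Hexa, the alpha subunit of the hexosaminidase that degrades GM2 ganglioside, was at 25.6 and 28.0 FPKM in control and at 22.8 and 23.5 FPKM after Lkb1 siRNA. Its groups did not overlap, and its log2 fold change was -0.25 ± 0.081 (edgeR adjusted p = 0.323 without and 0.0044 with the block). Psap, the precursor of the saposins that help degrade sphingolipids, was at 350 and 389 FPKM in control and at 321 and 365 FPKM after Lkb1 siRNA. Its groups overlapped because batch 2 was higher in both, and its log2 fold change of -0.15 ± 0.079 passed with the block alone (adjusted p = 0.529 without and 0.0128 with it). Without the block, its log2 change was -0.083 when the control library of batch 2 was left out, -0.057 without the Lkb1 siRNA library of batch 1 and -0.24 without that of batch 2. Naglu, which acts on heparan sulfate, had a log2 change of -0.15, Glb1 (beta-galactosidase) -0.08, Grn (progranulin) -0.08, Gusb (beta-glucuronidase) -0.05 and Lipa (acid lipase) 0.03, and none of these 5 passed. The 3 subunits of the proton pump of the lysosome, Atp6v0d1, Atp6v1a and Atp6v1h, had log2 fold changes of 0.01, 0.02 and -0.07, and none passed.

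The autophagy machinery gave changes in both directions. In the initiation kinase complex, Ulk1, the kinase that AMPK phosphorylates, was at 10.6 and 11.2 FPKM in control and at 11.5 and 12.4 FPKM after Lkb1 siRNA, a log2 change of 0.10 ± 0.075 that did not pass (edgeR adjusted p = 0.643). Its paralog Ulk2 was at 7.84 and 10.5 FPKM in control and at 7.73 and 8.39 FPKM after Lkb1 siRNA. The groups overlapped, and the log2 fold change of -0.21 ± 0.120 passed with the block (adjusted p = 0.536 without and 0.0153 with it), although it was -0.06 in batch 1 and -0.34 in batch 2. Without the block, it was -0.40 when the control library of batch 1 was left out and -0.0052 without that of batch 2. Atg13, their scaffold partner, had a log2 change of -0.03.

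Of the genes for nucleation and membrane supply, none passed. Becn1, a subunit of the lipid kinase complex that starts the autophagosome, was at 51.8 and 52.1 FPKM in control and at 56.9 and 57.9 FPKM after Lkb1 siRNA, a log2 change of 0.08 ± 0.066. Wipi1, which binds the lipid made by that complex, had a log2 change of -0.18 ± 0.102 that came from batch 2 (-0.35) and not batch 1 (-0.0028). Atg14, Atg9a and Wipi2 had log2 fold changes of 0.13, -0.08 and 0.0019.

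In the machinery that attaches ATG8 proteins to membranes, Atg16l1 rose. It was at 8.10 and 8.16 FPKM in control and at 10.3 and 9.52 FPKM after Lkb1 siRNA, with no overlap between the groups. Its log2 fold change was 0.26 ± 0.095 (SE; edgeR adjusted p = 0.358 without and 0.0211 with the block), the only member to pass in that direction. Its partners Atg5 and Atg7 had log2 fold changes of -0.08 and -0.04.

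The 5 ATG8 genes, whose proteins coat the autophagosome membrane and bind cargo receptors, differed among themselves. Gabarapl1 was at 92.2 and 92.5 FPKM in control and at 81.0 and 83.0 FPKM after Lkb1 siRNA, a log2 change of -0.21 ± 0.065 (edgeR adjusted p = 0.311 without and 6.22e-04 with the block). Its groups did not overlap. Gabarap was at 129 and 140 FPKM in control and at 118 and 140 FPKM after Lkb1 siRNA, and Gabarapl2 at 94.2 and 102 FPKM in control and at 105 in both Lkb1 siRNA libraries. Map1lc3a was at 51.6 and 56.4 FPKM in control and at 55.2 and 54.1 FPKM after Lkb1 siRNA, and Map1lc3b at 50.9 and 55.6 FPKM in control and at 51.1 and 56.9 FPKM after Lkb1 siRNA. These 4 genes had log2 fold changes of -0.10, 0.05, -0.03 and -0.01, and their direction turned under at least 1 alternative setting. Sqstm1, the cargo receptor p62, was at 256 and 259 FPKM in control and at 246 and 244 FPKM after Lkb1 siRNA, a log2 change of -0.11 ± 0.063 that did not pass (edgeR adjusted p = 0.545).

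Lysosome and autophagy genes were then set side by side. The median log2 fold change over the 20 tested lysosome members was -0.076, with 15 negative. Over the 17 autophagy members it was -0.028, with 11 negative. Over all 12222 genes it was 0.00049, with 49.8% negative. The median of the lysosome members was -0.073 in batch 1 and -0.088 in batch 2, and that of the autophagy members -0.0028 and -0.036. The lysosome median was thus lower than the autophagy median by a log2 difference of -0.048, which was -0.070 in batch 1 and -0.052 in batch 2. It was -0.024 with the trend on transcript length removed. The 10% of genes with the shortest transcripts had a median log2 fold change of -0.068, and the 10% with the longest 0.038. Median length was 1938.5 bases over the lysosome members, 2164 over the autophagy members and 2677 over all genes. The part of length was not tested further. No p is given for the difference between the lysosome and autophagy medians, since the members were chosen with results known. Both Lkb1 siRNA libraries lay outside the control range, in CPM, on the low side for 9 lysosome and 4 autophagy members and on the high side for 2 and 3. Over all 42 members that made 13 low and 5 high, where 21.4% of all genes lay low and 21.2% high.

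**Figure D3:**
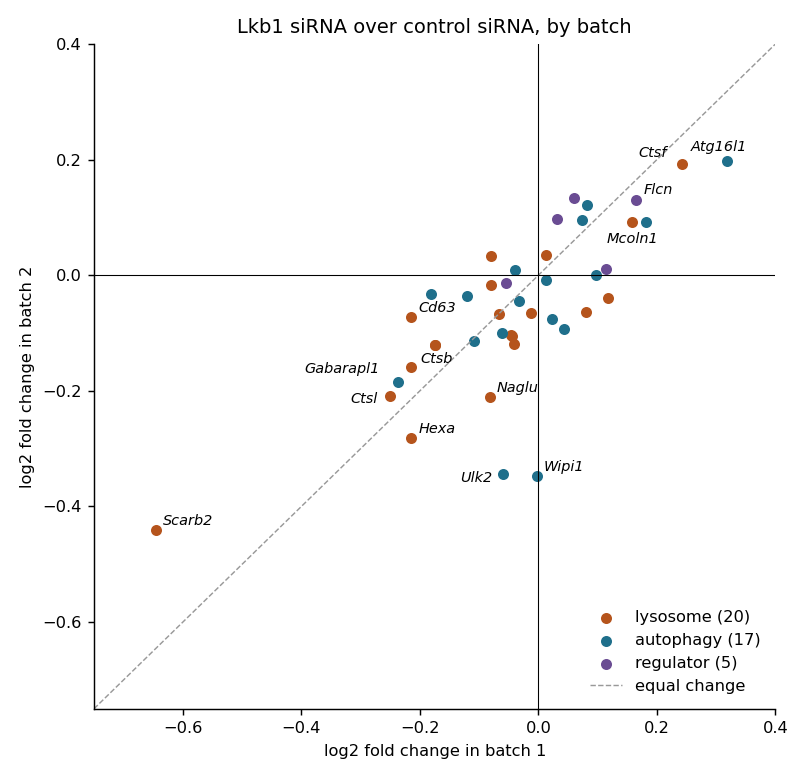
Log2 fold change of each tested member, Lkb1 siRNA over control siRNA, in batch 1 (x axis) and in batch 2 (y axis), coloured by lysosome, autophagy and regulator, with a dashed line of equal change. Scarb2 lies at -0.65 and -0.44, and Ulk2 and Wipi1 are low in batch 2 alone. Of the 42 members 23 are below 0 in both batches, against 33.4% of all tested genes.

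Many lysosome members are highly expressed, and highly expressed genes as a whole had a negative median. In the top 10% of genes by mean FPKM, the 1223 genes at 79.1 FPKM or more, the median log2 fold change was -0.065, and 22.4% were called lower and 3.68% higher with the block. The 13 members among these genes had a median of -0.11, and 6 of them were called lower. The other 29 tested members had a median of -0.014, and 3 were called lower (Scarb2, Hexa and Ulk2). Over all genes of any level 6.99% were called lower with the block, and the share of genes below 79.1 FPKM alone is not given here. Within the lysosome members the median was -0.14 for the 9 among these genes and -0.049 for the 11 below that level. The part of expression level in the difference between lysosome and autophagy genes was not tested further.

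Members with and without TCACGTG in their promoter window overlapped in their change. The 11 tested members with the motif had a median log2 fold change of -0.032, from -0.15 to 0.13, and 1 of them, Ctsd, was called with the block. The 26 tested members whose window lacks it had a median of -0.063, from -0.54 to 0.21, and 7 were called. Over all genes tested, 6.99% were called lower and 6.59% higher with the block. No test compared the members with and without the motif. The motif is a description of the windows and says nothing of binding in these cells.

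A wider set of genes of the same pathways gave small medians too. Of 70 further lysosome genes 67 were tested, and 42 of these had a negative log2 fold change, against 49.8% of all genes tested. The median over the 67 genes was -0.069, while the medians by batch were -0.037 in batch 1 and -0.045 in batch 2. In 18 genes the direction differed between the batches. None passed without the block, while 9 fell (13.4%) and 1 rose (1.49%) with it, against 6.99% and 6.59% of all genes. Ostm1 and Clcn7, which encode the subunits of one chloride-proton exchanger of the lysosome membrane, moved in opposite directions. Ostm1 was at 4.46 and 4.21 FPKM in control and at 2.67 and 2.79 FPKM after Lkb1 siRNA, a log2 change of -0.70 ± 0.137 (edgeR adjusted p = 0.132 without and 3.24e-06 with the block). Clcn7 was at 7.92 and 7.52 FPKM in control and at 10.1 and 9.92 FPKM after Lkb1 siRNA, a log2 change of 0.34 ± 0.086 (adjusted p = 0.225 without and 1.98e-04 with the block). The groups of both genes were well apart. Arsb, an arylsulfatase, and Npc1, the cholesterol exporter, fell by 0.21 and 0.22 on the log2 scale.

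**Figure D4:**
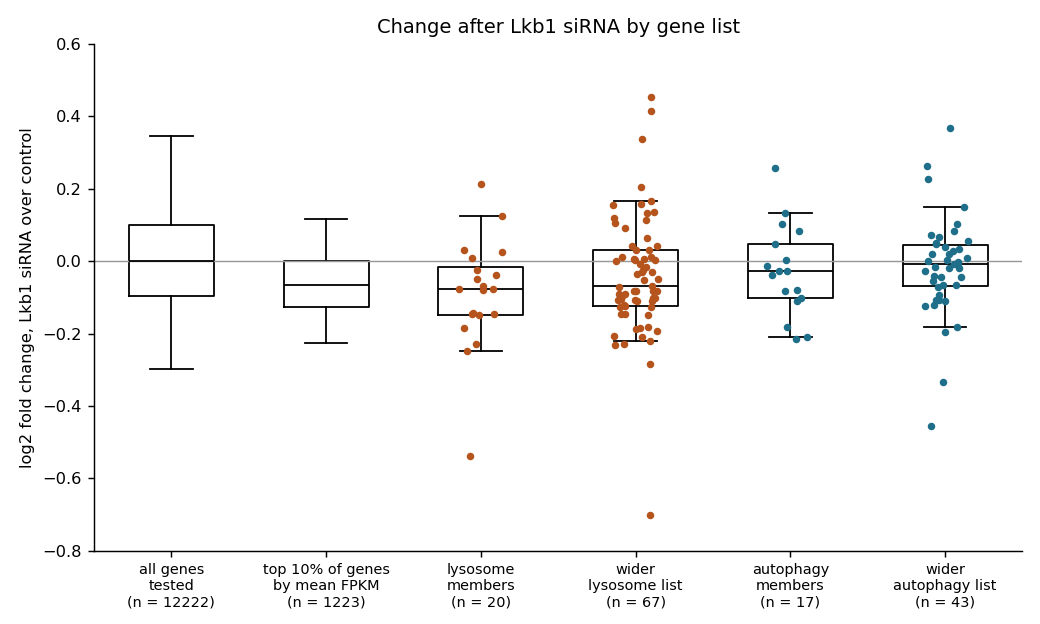
Log2 fold change, Lkb1 siRNA over control siRNA, of all tested genes, the top 10% of genes by mean FPKM, the lysosome and autophagy members and the wider lists; boxes span the quartiles with the median as a line, whiskers run from the 5th to the 95th percentile, and points are single genes of the lists. The lysosome members (-0.076) and the top 10% of genes by FPKM (-0.065) have similar medians, and all genes centre on 0.

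Of 43 further autophagy genes, all tested, 25 had a negative log2 fold change, against 49.8% of all genes, and the median was -0.0082. None passed without the block, and 3 fell and 3 rose with it. That is 6.98% in each direction, near the 6.99% and 6.59% of all genes, so the genes named next are single genes and no change of the list. Optn, a cargo receptor of mitophagy, was at 5.80 and 6.04 FPKM in control and at 4.09 and 4.64 FPKM after Lkb1 siRNA, a log2 change of -0.45 ± 0.128 (edgeR adjusted p = 0.269 without and 0.00117 with the block). Ncoa4, the receptor for ferritin, fell by 0.18 on the log2 scale. Retreg1, a receptor for the endoplasmic reticulum, and Atg2a, a lipid transfer protein, had log2 fold changes of 0.37 and 0.23 and rose. Of 10 genes of the Rag and Ragulator complexes, which hold mTORC1 at the lysosome, and their partners, 6 had a negative log2 fold change, with a median of -0.024. Lamtor2, a Ragulator subunit, was the 1 gene of these to pass with the block. It was at 170 and 164 FPKM in control and at 129 and 152 FPKM after Lkb1 siRNA. Its log2 fold change was -0.29 ± 0.093 (edgeR adjusted p = 4.05e-04 with the block). Without the block, the smallest edgeR adjusted p among the 10 genes was 0.317.

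The transcript table listed 149 RefSeq transcripts of the members, of which 104 were tested and none passed, without or with the block. Over all 34279 transcripts tested, 0% were called higher and 0% lower by edgeR without the block. With the block, the smallest edgeR adjusted p of any transcript was 0.925. Scarb2, Ctsd and Gabarapl1 each have only a transcript with the gene's own counts. In the fits with the block, these had an edgeR adjusted p of 0.925 as transcripts, against 1.3e-15, 0.0239 and 6.22e-04 as genes. At an unadjusted p of 0.05 there were 18 member transcripts and 2313 transcripts in all. Lamp2 makes splice forms that differ in their last exon. Its transcript NM_010685 held 70.0 and 70.7% of the gene's estimated count in control and 72.4 and 74.9% after Lkb1 siRNA, and NM_001017959 held 29.0 and 28.1% in control and 26.2 and 24.1% after Lkb1 siRNA. For Psap the minor transcript NM_001146122 held 7.11 and 7.19% in control and 5.88 and 5.46% after Lkb1 siRNA. For Atg16l1 the transcript NM_029846 held 59.0 and 57.1% in control and 60.3 and 67.4% after Lkb1 siRNA. Its other main transcript, NM_001205392, held 40.0 and 37.5% in control and 39.7 and 32.6% after Lkb1 siRNA, and so overlapped. These 3 genes were chosen after their values were seen, and no test of the shares was made. The share of the main transcript did not overlap between the groups in 16 of the 27 members with at least 2 tested transcripts (59.3%), against 36.9% of all such genes. Some of these differences were very small, as for Cd63, with 99.61 and 99.65% in control and 99.50 and 99.51% after Lkb1 siRNA. The tested members also had a higher median control level than all tested genes, 27.2 against 12.6 FPKM. The part of level in these counts was not tested.

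**Figure D5:**
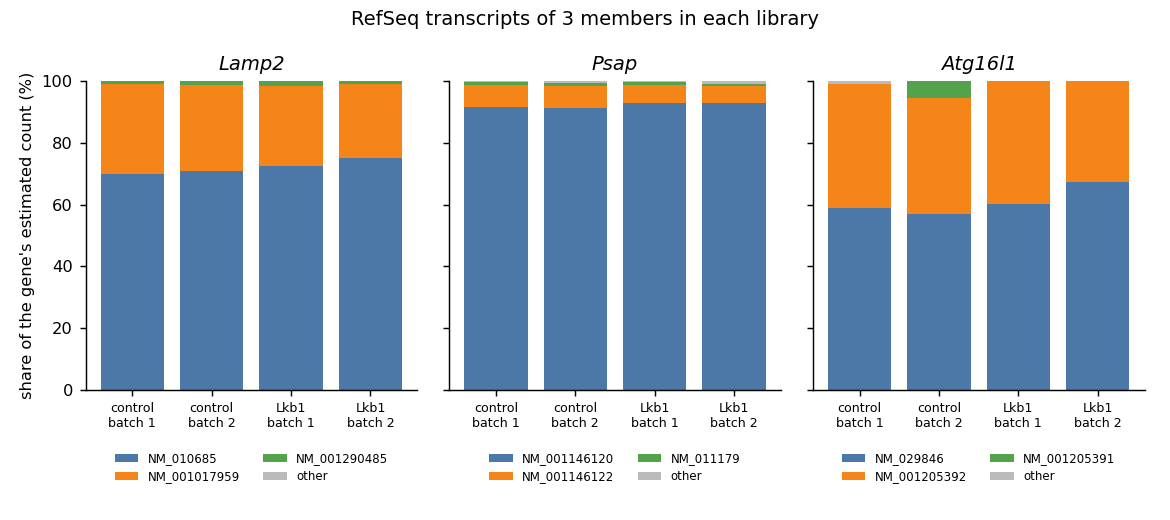
Share of the estimated count of Lamp2, Psap and Atg16l1 held by each RefSeq transcript in each of the 4 libraries, in percent, as stacked bars with the minor transcripts beyond the first 3 summed in grey. The blue share of Lamp2 is between 70.0 and 70.7% in control and between 72.4 and 74.9% after Lkb1 siRNA.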

How the data were processed

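The libraries hold bulk RNA of 2 groups with 2 libraries each. Per the submitters' processing notes, HISAT2 2.0.4, Bowtie2 2.2.5, RSEM 1.2.8 and the build GRCm39 were used, with no role or order given; the annotation release and the strand setting are not given in the sources used here. The deposited read counts are expected counts estimated by the authors, and 5.73 to 5.97% of the gene values of a library are not whole. The FPKM values are the authors' own, relative to transcript length and library size. A further 16 per-sample columns were not used. In 15 gene and 31 transcript cells a doubled decimal point was read as 1 point.

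Expected counts were rounded and tested in R 4.3.3 with edgeR 4.0.16 (robust quasi-likelihood F-test, TMM, minimum count 10), with Benjamini-Hochberg adjustment over all 12222 genes tested. The script was tested on simulated data. The log2 fold change is Lkb1 siRNA minus control siRNA, its SE comes from the F statistic, and intervals are 95%. Batch as a block is the paired fit: the labels give the batch, and same-batch libraries deviated together with a correlation of 0.183 across genes. Principal component 1 (41.4% of variance) separated the groups and component 2 (36.7%) the batches. Alternatives used DESeq2 1.42.0, limma 3.58.1 on log2(FPKM + 1) and log2(FPKM + 0.1), library size, other filters, removal of a length trend and leaving out each library. The members and the lists were chosen with earlier results of these data known. Every member is accounted for by role; full values are given for members that passed with or without the block, for the MiT/TFE and ATG8 genes and for those with the smallest p-values.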

Additional observations from a re-analysis of the deposited data

How the results depend on the processing

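In the edgeR fit of the report no member passed without the block. With the replicate block 9 members were lower and 1 higher, where 854 of all 12222 genes tested were lower and 806 higher. With the block and the length trend removed 7 members were lower and 1 higher, with Ctsd and Cd63 no longer called. In that fit 811 of all 12222 genes were lower and 726 higher. The filter of at least 1 count gave 1 lower member, with 32 of all 15739 genes lower. DESeq2 also gave 1 lower member, with 30 of all 12222 genes lower. The other alternatives that kept all 4 libraries gave none, and called between 0 and 5 of all genes in either direction. The wider lysosome list gave 10 calls with the block, the wider autophagy list 6 and the Rag and Ragulator list 1. The lysosome median stayed negative under all 13 alternatives: -0.044 by library size, -0.039 and -0.041 by FPKM with pseudocounts of 1 and 0.1, -0.065 with the length trend removed, -0.064 with the block as well, and -0.11 to -0.062 without 1 library. The autophagy median turned positive by library size (0.0039) and by FPKM (0.0078 and 0.0085), and was -0.064 without the control library of batch 1 and -0.0052 without that of batch 2, the ends of its range. The regulator median was 0.098 by library size, 0.10 and 0.11 by FPKM, 0.12 without the control library of batch 1 and 0.012 without that of batch 2, the ends of its range. Library size and FPKM moved the median of all genes to between 0.030 and 0.035. The difference between the lysosome and autophagy medians was negative under all 13 alternatives; it was -0.024 with the length trend removed, with and without the block, and -0.068 to -0.047 without 1 library.

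Genes that had not passed turned direction as follows, on the log2 scale. Map1lc3a was 0.0054 by library size, 0.018 and 0.019 by FPKM, 0.022 with the length trend removed, with and without the block, and -0.078 to 0.026 without 1 library. Map1lc3b was 0.018 by library size, 0.021 by FPKM with either pseudocount, and -0.090 to 0.061 without 1 library. Leaving out 1 library, Tfeb ranged from -0.068 to 0.27, Mitf from -0.059 to 0.19, Gabarap from -0.23 to 0.018 and Gabarapl2 from -0.00023 to 0.096. The cause was not tested. Where a library was left out, the lone library of its group was assumed to vary like the others.

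Without the block, the median half-width of the members' 95% intervals was 0.18 on the log2 scale; with the block, changes below that size were called for Ctsd, Cd63 and Psap. At 7 members another gene overlaps in the annotation (Ctsa, Ctsb, Ctsz, Hexa, Glb1, Becn1 and Map1lc3b), and whether reads were shared was not tested.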

Other observations

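In the edgeR fit with the block, 6 of 42 members (14.3%) passed the batch term at an adjusted p of 0.05, near the 12.9% of all genes, and all 6 were higher in batch 2: Flcn, Psap, Grn, Lipa, Ulk2 and Gabarap. Lipa, the acid lipase, was at 13.0 FPKM in the control and 14.6 FPKM in the Lkb1 siRNA library of batch 1, and at 17.1 and 16.9 FPKM in batch 2, a log2 difference of 0.28 between the batches (adjusted p = 0.00111). Of the 67 tested genes of the wider lysosome list, 13 (19.4%) passed the batch term and all 13 were higher in batch 2. Over all genes 1579 passed it, of which 770 were higher in batch 2. What the batches differed in is not given in the labels.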
